A study of Mus musculus with 12 samples.

Results

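The beta subunits of the sodium pump, Atp1b1, Atp1b2 and Atp1b3, and the potassium channel subunit Kcnv2 were followed through rod translating ribosome affinity purification (TRAP) RNA and whole-retina RNA of mice heterozygous (Het) or homozygous (KO) for a Shp2 deletion in rods. These 4 genes were taken by symbol from a table of 56748 genes, and all 4 passed the filter on low values in every comparison. Rods carried Atp1b2 and Kcnv2 above the level of the whole retina, whereas Atp1b1 and Atp1b3 were far below it. None of the 4 passed the test between KO and Het rods.

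RNA came from the retinas of 2-week-old littermates, and each of 4 groups held 3 libraries. Control mice (Het) had the genotype RiboTag;Shp2fl/+;i75-Rod-Cre and KO mice RiboTag;Shp2fl/fl;i75-Rod-Cre, so rods of the controls also carried 1 floxed allele of Shp2 (gene symbol Ptpn11) exposed to Cre. The sample titles call the controls wt, while their genotype is listed as heterozygous. Every mouse carried Cre under the rhodopsin promoter and was homozygous for RiboTag, a floxed Rpl22 allele that adds a hemagglutinin (HA) tag to ribosomes wherever Cre has acted. Het rods and KO rods are the RNA immunoprecipitated with the HA tag, and Het retina and KO retina the total lysate. All tissue was frozen after perfusion with cycloheximide, which holds ribosomes on mRNA, and cDNA was made with a SMART-Seq v4 kit. The records do not say whether libraries of a group came from separate mice, so p-values measure the spread between these libraries only.

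The sodium pump (Na+/K+-ATPase) expels sodium and takes up potassium at the cost of ATP. Its alpha subunit is catalytic, its beta subunit is a glycoprotein needed for folding and delivery of the alpha subunit to the membrane, and small FXYD proteins tune its kinetics. In rods the pump sits in the inner segment, where it removes the sodium that enters the outer segment through cyclic nucleotide-gated channels in darkness. Potassium leaves the inner segment through voltage-gated (Kv) channels. Kcnv2 encodes Kv8.2, a silent subunit that makes no channel alone but joins other Kv subunits, and its loss in people causes cone dystrophy with supernormal rod response.

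Promoters are shown for Atp1b1 and Atp1b3, the only members with a window in the reference. No member high in rods could therefore be set beside them. RefSeq gave 3 windows of GRCm38.p6 for 2 of the 4 genes, and the promoters of Atp1b2 and Kcnv2 are only named. Each sequence is the 250 bases before the start of transcription, 5′ to 3′ on the strand of the gene, with GC boxes (GGGCGG, or CCGCCC on the other strand) in capitals. The Atp1b1 window lies at chr1:164458356-164458605 on the minus strand and the Atp1b3 window shown at chr9:96364432-96364681 on the minus strand.
Atp1b1: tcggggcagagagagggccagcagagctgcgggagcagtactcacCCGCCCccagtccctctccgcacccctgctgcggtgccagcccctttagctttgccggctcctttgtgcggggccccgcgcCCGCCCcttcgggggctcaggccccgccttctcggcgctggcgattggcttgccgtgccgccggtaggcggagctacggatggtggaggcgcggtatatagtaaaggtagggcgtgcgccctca
Atp1b3: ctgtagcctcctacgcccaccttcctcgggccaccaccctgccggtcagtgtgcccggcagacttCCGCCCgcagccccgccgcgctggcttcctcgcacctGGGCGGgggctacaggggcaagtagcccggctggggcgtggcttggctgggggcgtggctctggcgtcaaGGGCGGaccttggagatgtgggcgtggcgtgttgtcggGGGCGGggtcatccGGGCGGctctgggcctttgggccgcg
The Atp1b1 window held 2 GC boxes and 70.4% G and C, and the Atp1b3 window shown 5 GC boxes and 73.6%. A second Atp1b3 window, at chr9:96363716-96363965, held 0 GC boxes and 76.8% G and C, and is not shown because no transcript start of the annotation matched it. GC boxes, the sites that Sp1-family factors bind, occurred in 32.7% of 32851 windows of the same length. None of the 3 windows held TAATCC, the core letters of the photoreceptor factors Crx and Otx2, on either strand, and 6.25% of all windows did. The cAMP response element TGACGTCA was also absent from all 3, and was found in 1.55% of windows. The motifs do not overlap each other in these sequences, and a match or its absence describes the letters only.

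The deposited values are whole numbers whose totals were nearly equal within a fraction (14525527 to 14527992 in retina and 16263948 to 16265259 in rods), so they are scaled reads and the depth of each library is unknown. The TRAP libraries carried the markers their label names, since all 10 rod markers were higher in Het rods than in Het retina, with a median log2 fold change of 1.86. Lower in Het rods were 10 of 10 markers of cones (median -1.05), 9 of 10 of Müller glia (-4.84), 8 of 10 of bipolar cells (-5.04), 10 of 10 of amacrine cells (-4.89) and 10 of 10 of ganglion cells (-5.00). Of the horizontal cell markers 9 of 10 were lower and 1 was higher at 1.08, and they took 0.0426% to 0.0453% of a Het rod library against 0.0817% to 0.0849% of a Het retina library. None of the 10 Müller glia markers and none of the 10 amacrine markers was at 0 in every Het rod library. Ptpn11 was 2511, 2439 and 2431 in Het rods, KO rods had 1735, 2139 and 1971, and these groups did not overlap. Groups without overlap were common, at 44.0% of the 13055 genes tested between KO and Het rods. The log2 fold change of Ptpn11 was -0.26 (SE 0.09), with an adjusted p of 0.064 by limma. That value covers the whole gene, and its exons were not analysed here. Lens crystallins took between 0.000922% and 6.21% of a retina library and at most 0.0948% of a rod library.

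Atp1b2, the beta subunit first described as an adhesion molecule on glia, had the highest values of the 3 beta subunits in both fractions. It was 42281, 45476 and 45044 in Het rods and 24060, 24283 and 20182 in Het retina. KO rods gave 45105, 42603 and 43251, and KO retina 25599, 22914 and 20042. Every rod library lay above every retina library. Means ran from 44267 ± 1733 (SD, n = 3) in Het rods and 43653 ± 1298 in KO rods to 22852 ± 2779 in KO retina and 22842 ± 2306 in Het retina, so that the order was set by fraction and neighbours of 1 fraction lay within each other's spread. On the log2 scale (TMM-scaled value + 2), Atp1b2 was 1.21 higher in Het rods than in Het retina (SE 0.11, 2.31-fold, limma adjusted p = 2.3e-05). In KO rods it was 1.31 higher than in KO retina (SE 0.11, 2.48-fold, limma adjusted p = 1.4e-05).

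Atp1b1 encodes the beta subunit that pairs with pumps across most tissues. It was 102, 111 and 136 in Het rods against 5784, 5330 and 5774 in Het retina. In KO rods it was 129, 91 and 124, and in KO retina 6205, 6093 and 4797. The fractions were far apart, with means of 116 ± 17.6 and 115 ± 20.6 (SD, n = 3) in Het and KO rods and of 5629 ± 259 and 5698 ± 783 in Het and KO retina. Atp1b1 was 5.34 lower in Het rods on the log2 scale (log2 fold change -5.34, SE 0.14, 40.4-fold, limma adjusted p = 2.1e-07) and 38.0-fold lower in KO rods (log2 fold change -5.25, SE 0.17, limma adjusted p = 3.7e-07). Of all genes tested, 1.07% had a lower log2 fold change in the Het comparison. The value lay below the medians of the Müller glia, amacrine and ganglion markers given above, and the part of RNA from such cells in the Atp1b1 signal of rods was not tested.

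Atp1b3, the third of the beta subunits, was low in rods as well but varied most in retina. Het retina values were 1670, 2001 and 4269, and KO retina values 2084, 2879 and 3341. Het rods had 178, 160 and 205 and KO rods 124, 125 and 174. All rod libraries were below all retina libraries, and replicate 3 was the highest retina library in each genotype. Atp1b3 was 11.2-fold lower in Het rods (log2 fold change -3.49, SE 0.32, limma adjusted p = 2.4e-05) and 14.9-fold lower in KO rods (log2 fold change -3.90, SE 0.22, limma adjusted p = 1.7e-06). In the highest library, Het retina replicate 3, markers of the retinal pigment epithelium made up 0.0340% of the signal. Replicates 1 and 2 of that group had 0.0158% and 0.0138%, the reverse of their order in Atp1b3. In KO retina these shares were 0.00494%, 0.00941% and 0.0801%, in the same order as Atp1b3. Rod libraries held at most 0.00262% of these markers, and 9 of 9 testable markers were called lower in Het rods but 3 of 10 in KO rods. Lens crystallins took 0.463%, 1.12% and 6.21% of the KO retina libraries, also in the order of Atp1b3, and 0.000922%, 1.81% and 1.65% of the Het retina libraries, which is not its order. The part of either tissue in the Atp1b3 values was not tested. Group means of Atp1b3 ran from 2768 ± 636 in KO retina and 2647 ± 1415 in Het retina to 181 ± 22.7 in Het rods and 141 ± 28.6 in KO rods (SD, n = 3).

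Kcnv2 was 25610, 23097 and 22771 in Het rods and 12645, 10286 and 11557 in Het retina. It was 23656, 22066 and 23180 in KO rods and 12349, 13104 and 9687 in KO retina. As for Atp1b2, no rod library overlapped with a retina library, and the genotypes overlapped within each fraction. Kcnv2 was 2.47-fold higher in Het rods than in Het retina (log2 fold change 1.30, SE 0.11, limma adjusted p = 1.3e-05) and 2.56-fold higher in KO rods than in KO retina (log2 fold change 1.35, SE 0.13, limma adjusted p = 2.2e-05). In the Het comparison 97.8% of genes tested had a lower log2 fold change than Kcnv2, and 96.9% a lower one than Atp1b2. Both genes lay below all 10 rod markers, which ran from 1.61 to 2.00 in the Het and from 1.63 to 2.22 in the KO comparison. Mean values were 23826 ± 1554 in Het rods, 22967 ± 816 in KO rods, 11713 ± 1795 in KO retina and 11496 ± 1181 in Het retina (SD, n = 3).

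**Figure D1:**
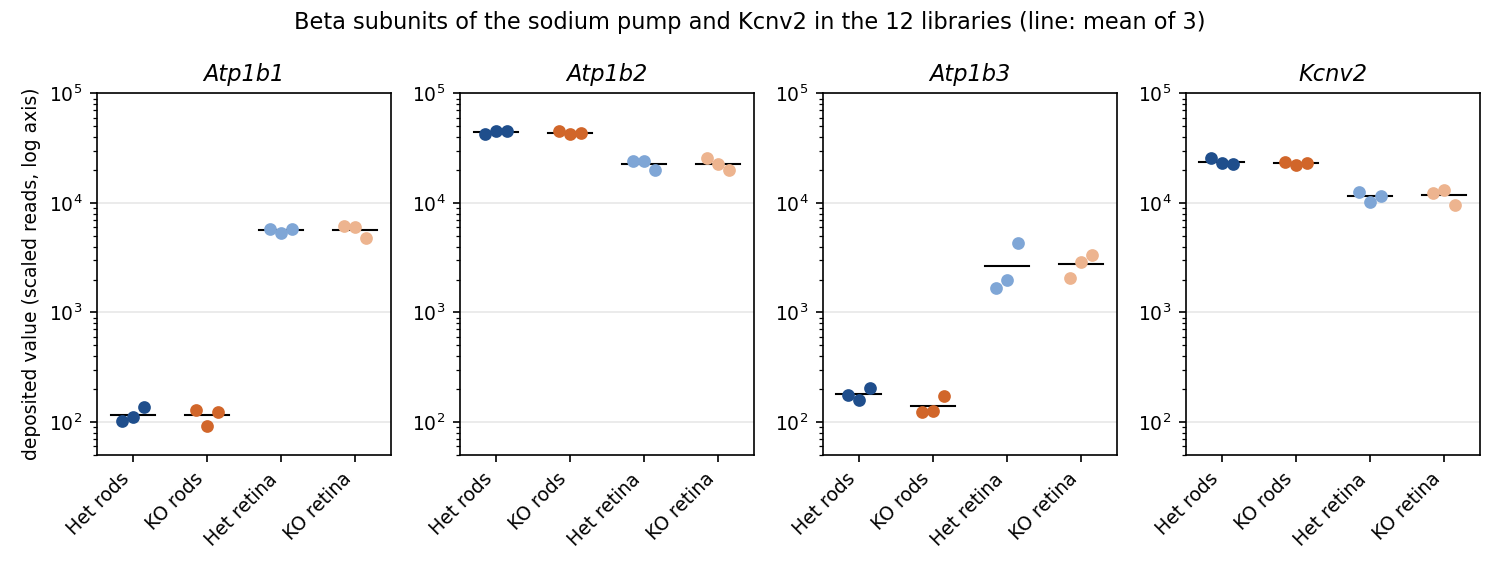
Deposited values (scaled reads, log axis) of Atp1b1, Atp1b2, Atp1b3 and Kcnv2 in each of the 12 libraries, with 1 point per library and a line at the mean of the 3 libraries of a group. Atp1b2 and Kcnv2 were higher in every rod library than in any retina library, Atp1b1 and Atp1b3 were lower in every rod library, and Het and KO overlapped throughout.

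Counted together, 2 of the 4 genes were higher and 2 lower in rods in both genotypes, with groups that did not overlap. In the Het comparison 21.4% of 16110 genes were called higher and 36.8% lower (58.2% in all) where a call needed an adjusted p below 0.05 together with a log2 fold change of more than 0.5 in size, and 68.6% had groups that did not overlap. In the KO comparison 25.7% of 16121 genes were called higher and 36.5% lower (62.2% in all), and 72.1% had groups that did not overlap. A call in either direction was therefore common among all genes, and the count of called members is read no further. The shares called lower also hold genes that entered the test through their level in retina, whose direction was fixed by the filter. The comparisons in Het and KO mice share no library. The median of all genes was -0.11 in the Het and -0.02 in the KO comparison, and scaling by library size alone moved these to -0.51 and -0.55 and the share of higher among changed genes from 36.8% to 13.5% and from 41.3% to 12.5%. Under that scaling Atp1b2 was 0.79 and 0.77 higher and Kcnv2 0.89 and 0.82 higher on the log2 scale in Het and KO rods, each still past the threshold. In bulk RNA, fewer cells of a type and less RNA per cell cannot be told apart.

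The ratio of a pair of genes within a library does not depend on how libraries are scaled, and each of the 6 pairs was compared between rods and retina. Atp1b1 relative to Atp1b2 was -8.56 ± 0.18 on the log2 scale in Het rods and -2.02 ± 0.19 in Het retina (SD, n = 3), and -8.56 ± 0.24 in KO rods and -2.01 ± 0.08 in KO retina. The 5 pairs that join a gene high in rods with a gene low in rods, or Atp1b1 with Atp1b3, differed between the fractions by -6.62 to 4.95, each with an exact permutation p = 0.005 (two-sided, labels permuted within genotype, the smallest that 400 arrangements give) and an adjusted p of 0.006 over the 6 pairs. Atp1b1 fell further than Atp1b3, by 1.60 on the log2 scale (ratio difference -1.60). Atp1b2 relative to Kcnv2 was 0.89 ± 0.15 in Het rods, 0.99 ± 0.22 in Het retina, 0.93 ± 0.02 in KO rods and 0.97 ± 0.14 in KO retina (SD, n = 3). That ratio differed by -0.07 between fractions, which did not pass the exact permutation test (p = 0.455).

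Divided by the length of the longest coding transcript, which is needed to compare genes with each other, Atp1b2 made up 99.1% ± 0.10 of the beta subunit signal in Het rods and 99.3% ± 0.12 in KO rods (SD, n = 3). In retina its share was 69.6% ± 6.69 in Het and 69.0% ± 2.98 in KO mice. Atp1b1 held 0.287% ± 0.037 in Het rods and 18.9% ± 0.96 in Het retina, and Atp1b3 held 0.578% ± 0.074 and 11.5% ± 6.22. Between fractions the share of Atp1b2 was 29.9 percentage points higher in rods, and those of Atp1b1 and Atp1b3 differed by -18.6 and -11.3 points, each with an exact permutation p = 0.005, the smallest possible. Between KO and Het the shares in rods differed by 0.121 points for Atp1b2 (exact permutation p = 0.3) and -0.121 points for Atp1b3 (exact permutation p = 0.2), where 3 against 3 libraries cannot go below 0.1. The fourth beta gene, Atp1b4, was listed at 0 in all 6 rod libraries and at 0 to 1 in the retina libraries.

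**Figure D2:**
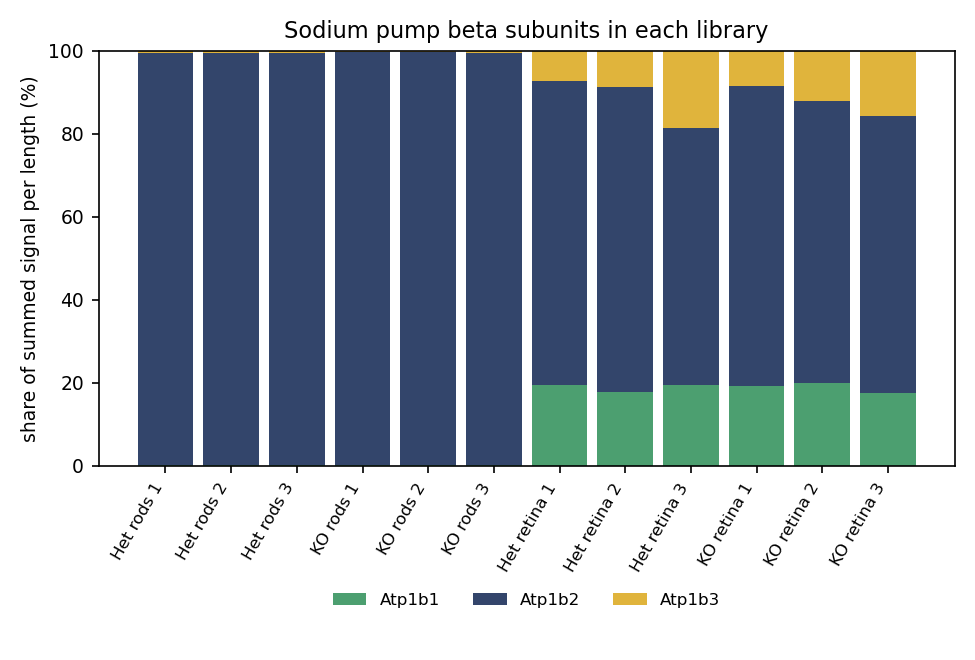
Share of each beta subunit in the summed beta subunit signal per length, as a percentage, with 1 stacked bar per library. Atp1b2 filled at least 99.0% of the beta signal in every rod library and 61.9% to 73.6% in retina.

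Further regulators and relatives of the pump were read from a list of 16, of which 6 could be tested in the Het comparison and 5 in the KO comparison. All of these were lower in rods, where 36.8% and 36.5% of all genes were. Fxyd6 was the only one that also passed the filter on the rod libraries of both genotypes together. It went down to 8 in Het rods, so it passed in the Het comparison with the help of retina libraries. The others, Fxyd1, Fxyd5, Fxyd7, Nkain1 and Nkain3, were at 0 to 4 in Het rods and entered the test through their level in retina, so that their direction was fixed by the filter. Fxyd6, a regulator of the pump in nervous tissue, was 8, 16 and 12 in Het rods and 839, 937 and 665 in Het retina (log2 fold change -5.66, SE 0.27, limma adjusted p = 8.0e-07). In KO mice it was 38, 21 and 24 against 1207, 995 and 847 (log2 fold change -4.77, SE 0.24, limma adjusted p = 1.3e-06). Per length, the mean signal in Het rods was 15576 per kb of transcript for Atp1b2, 90.8 for Atp1b3, 45.1 for Atp1b1, 6.71 for Fxyd6 and 4664 for Kcnv2.

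Of 14 other genes of Kv and HCN channels and proteins that bind them, 9 could be tested in each genotype. In Het rods 0 were higher, 7 lower and 2 did not pass, where 21.4% of all genes were higher and 36.8% lower. KO rods gave 0, 8 and 1, where 25.7% of all genes were higher and 36.5% lower. The additional gene, Hcn2 at -0.68, lost its call under 9 alternatives. In Het rods Hcn2 was at -0.85 (limma adjusted p = 0.059) and was called under 5 alternatives. Of the 9 genes, 4 also passed the filter on the rod libraries of both genotypes together, and these were Pex5l, Amigo1, Hcn2 and Kcng4. Kcng4 went down to 7 in Het rods, so it passed in the Het comparison with the help of retina libraries. The remaining 5, Kcns2, Kcns3, Kcnb2, Hcn3 and Hcn4, were at 0 to 7 in Het rods and could only come out lower (log2 fold changes of -4.47, -3.07, -4.87, -5.36 and -5.82). Pex5l, a protein that binds HCN channels, had the highest values of the list, with 9079, 8605 and 8623 in Het rods and 8527, 7511 and 6409 in Het retina, without overlap. Its log2 fold change was 0.49 in Het rods (SE 0.12, limma adjusted p = 0.0062) and 0.49 in KO rods (SE 0.13, limma adjusted p = 0.0077), just under the fold threshold. It passed that threshold under 4 alternatives in Het mice (among them 0.50 without Het rods replicate 2) and 5 in KO mice (0.52 without KO rods replicate 1), and was 0.07 and -0.04 with library size as the only scaling. Kcng4, a silent subunit like Kcnv2, was 7, 12 and 22 in Het rods and 245, 340 and 184 in Het retina (log2 fold change -3.88, SE 0.40, limma adjusted p = 4.2e-05). Amigo1, an adhesion protein that associates with Kv channels, was 363, 341 and 301 in Het rods and 1109, 1236 and 1041 in Het retina, without overlap (log2 fold change -1.50, SE 0.14, limma adjusted p = 2.1e-05).

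A list of 11 genes for other ion flows of the rod could be tested in full. In Het rods 8 were higher and 3 lower (medians 1.12 for the list and -0.11 for all genes, of which 21.4% were higher and 36.8% lower). In KO rods 8 were higher, 1 lower and 2 did not pass (medians 1.17 and -0.02, with 25.7% and 36.5% of all genes higher and lower). The 2 were Slc12a5 at -0.49 (limma adjusted p = 0.017) and Clcn2 at -0.56 (limma adjusted p = 0.10), which were called lower under 6 and 4 alternatives. Among these, Slc12a5 had -0.61, -0.83 and -0.60 without KO retina replicates 1, 2 and 3 and -0.55 without KO rods replicate 1, and Clcn2 had -0.98 without KO retina replicate 2. Cnga1 and Cngb1, the subunits of the rod cyclic nucleotide-gated channel, were 2.00 and 1.24 higher on the log2 scale in Het rods, and Slc24a1, the sodium, calcium and potassium exchanger of the outer segment, was 1.85 higher. Kcnj14, an inward rectifier potassium channel, was 1.12 higher in Het rods and 1.39 higher in KO rods. Cnga1 was 55416, 46697 and 52588 in Het rods and 17355, 11756 and 17424 in Het retina, without overlap. It is also among the rod markers used above. The genes lower in Het rods were Atp2b2, Slc12a5 and Clcn2, with log2 fold changes of -5.50, -1.15 and -0.93. Cacna1f, the calcium channel of photoreceptor terminals, had the smallest rise at 0.57, and 0.15 with library size as the only scaling, and its call was lost without Het retina replicate 3 (0.36) or Het rods replicate 3 (0.47). That of Clcn2 was lost without Het rods replicate 1 (-0.71) or replicate 2 (-0.94). Of 5 channels of glia and pigment epithelium, 4 could be tested and were lower in both genotypes, where 36.8% and 36.5% of all genes were. Kcnj10 and Aqp4, the potassium and water channels of Müller glia, had log2 fold changes of -3.58 and -5.48 in the Het comparison and of -3.70 and -5.03 in the KO comparison. Both are also among the Müller glia markers used above, so their values are not a separate result. Kcnj2 and Kcnj13, at 0 to 7 in the rod libraries, entered the test through retina, which fixed their direction.

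**Figure D3:**
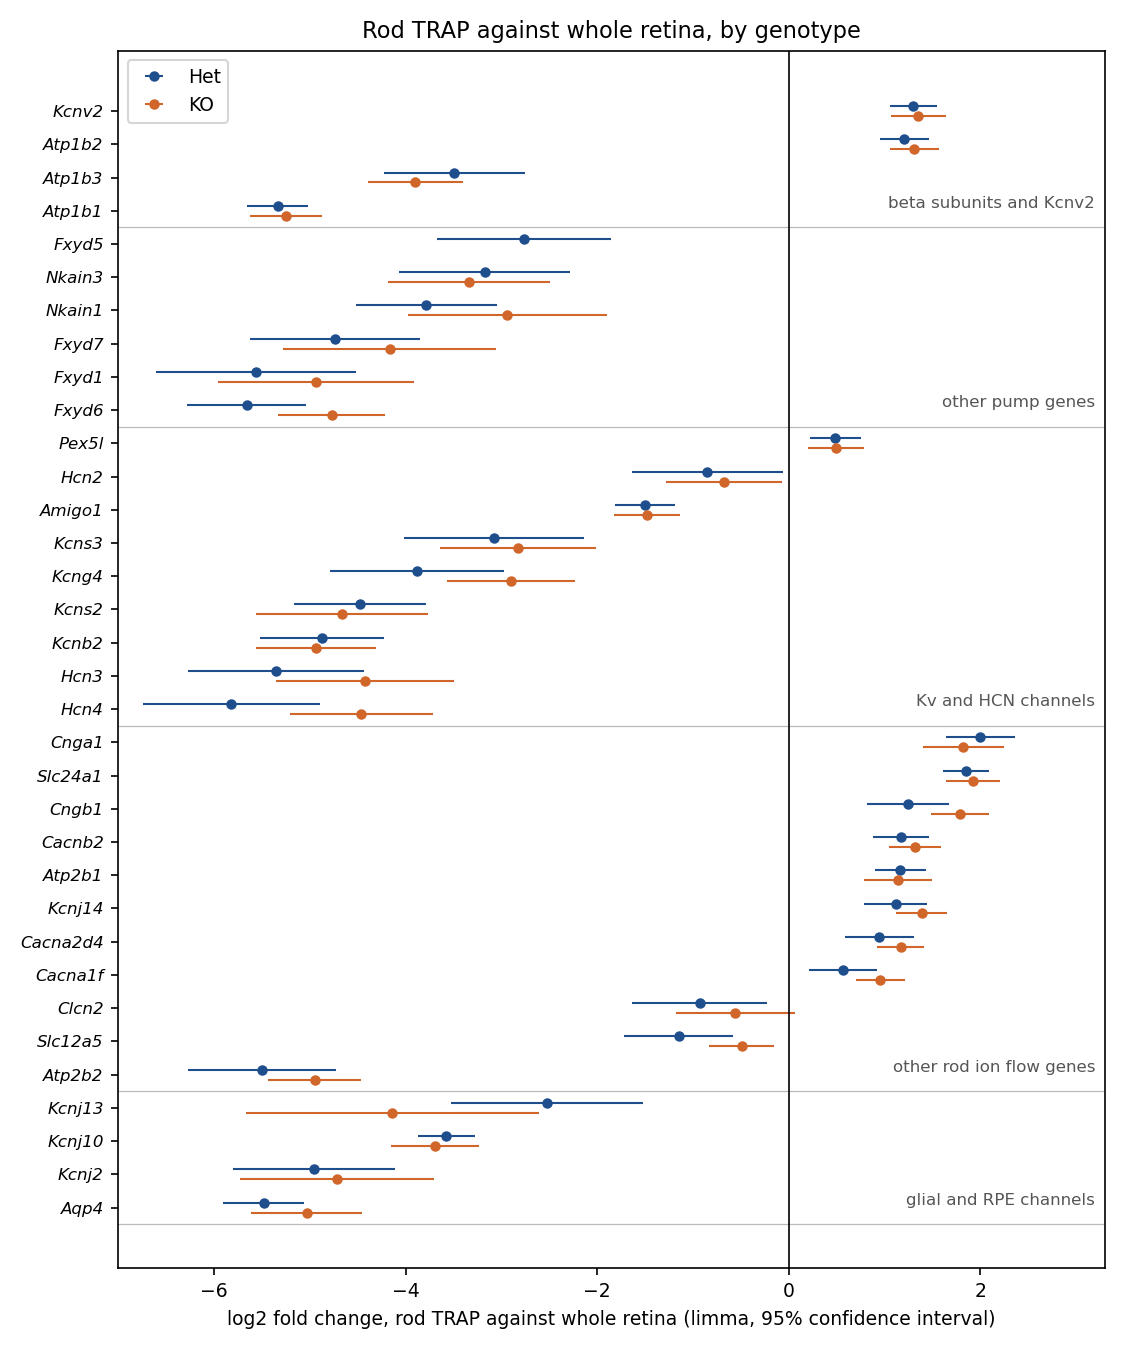
Log2 fold change of rod TRAP against whole retina with its 95% confidence interval (limma) for the 4 genes and the genes of the 4 lists that could be tested, Het in blue and KO in orange. Atp1b2 and Kcnv2 lay between 1.21 and 1.35, near Kcnj14 at 1.12 in Het and 1.39 in KO mice, whereas Atp1b1 and Atp1b3 lay on the left of 0, as Fxyd6 did.

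Whether loss of Shp2 changed these genes was asked in each fraction, with the same libraries as the comparisons of rods and retina. In rods, 13.1% of 13055 genes were called changed (11.2% higher and 1.91% lower) and 0 of the 4 members were. Log2 fold changes in KO against Het rods were 0.05 for Atp1b1 (SE 0.18, 95% interval -0.34 to 0.45), 0.06 for Atp1b2 (SE 0.07, -0.08 to 0.21), -0.28 for Atp1b3 (SE 0.17, -0.65 to 0.08) and 0.03 for Kcnv2 (SE 0.07, -0.12 to 0.19). Adjusted p-values by limma were 0.85, 0.52, 0.23 and 0.78. The values of KO and Het rods overlapped for all 4 genes, while 44.0% of all genes had groups that did not overlap. The intervals of Atp1b2 and Kcnv2 end well inside a log2 fold change of 0.5, and that of Atp1b3 extends beyond it on the lower side. At an unadjusted p below 0.05 none of the 4 passed either, compared with 38.4% of all genes.

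In whole retina 0 of 16863 genes were called by limma, and 0.830% had an unadjusted p below 0.05. The groups overlapped for all 4 members, and did not overlap for 3.52% of genes. The log2 fold changes in KO against Het retina were 0.01 for Atp1b1, 0.00 for Atp1b2, 0.17 for Atp1b3 and 0.02 for Kcnv2, each with a limma adjusted p of 1.0. The interval of Atp1b3, from -0.70 to 1.03, was the widest. The difference between the effects in rods and retina was tested over all 12 libraries, where 0 of 17192 genes were called and 3.51% had an unadjusted p below 0.05. For the 4 genes it ran from -0.56 for Atp1b3 (SE 0.44, limma adjusted p = 0.80) to -0.05 for Atp1b2 (SE 0.15, limma adjusted p = 0.94).

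Of the 11 genes for other ion flows 2 were higher in KO rods, where 11.2% of all genes were. Fxyd6, the only testable gene of the pump list, was called higher too but lost the call under 7 alternatives. It passed the filter there only with the help of KO rods, the group where it was higher, since Het rods went down to 8. Cngb1 was 29095, 32307 and 27392 in KO rods and 19825, 21452 and 21577 in Het rods, without overlap (log2 fold change 0.58, SE 0.09, limma adjusted p = 0.0032). Slc12a5, the potassium and chloride cotransporter KCC2, was 3767, 3494 and 3246 against 2073, 2732 and 2325 (log2 fold change 0.65, SE 0.11, limma adjusted p = 0.0037). The transcripts of both are rich in G and C, and 73.2% of the genes tested had a lower GC content than Cngb1 and 92.5% a lower one than Slc12a5. Across all genes the KO effect in rods rose with GC content, from a median log2 fold change of -0.28 at the GC-poor end to 0.69 at the GC-rich end when genes were put into 10 bins of GC content. The log2 span of values from GC-poor to GC-rich genes was -0.81, -0.23 and -0.42 for the 3 Het and 0.42, 0.76 and 0.28 for the 3 KO rod libraries. With the trend of each library removed, Cngb1 had 0.30 (SE 0.06, limma adjusted p = 0.011), past the adjusted p but under the fold threshold. Slc12a5 then had 0.00 (SE 0.08, limma adjusted p = 0.99). In that setting 2.65% of all genes were called instead of 13.1%. Cngb1 was 0.49 without KO rods replicate 2, also under that threshold. In 1 fit over all 12 libraries Cngb1 had 0.49 and Slc12a5 0.56, with limma adjusted p-values of 0.18 and 0.20. A shift with GC content and the genotype cannot be told apart in these libraries.

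The 4 members have GC contents near the middle, 49.5% for Atp1b1, 52.4% for Atp1b2, 47.7% for Atp1b3 and 48.3% for Kcnv2. With the trend removed their log2 fold changes in rods were 0.06, -0.10, -0.21 and 0.09, and limma adjusted p-values ran from 0.28 to 0.88. Ptpn11 went from -0.26 to -0.39 (SE 0.08, limma adjusted p = 0.013). Fxyd6 was 38, 21 and 24 in KO rods against 8, 16 and 12 (log2 fold change 1.16, SE 0.34, limma adjusted p = 0.028), and 0.66 (limma adjusted p = 0.25) without the trend. Its call was also lost without Het rods replicate 1 (0.93), Het rods replicate 3 (1.17) or KO rods replicate 1 (0.92).

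Of the other Kv and HCN genes, 0 of 4 testable in rods were called changed, where 13.1% of all genes were. Kcng4 was 31, 17 and 33 in KO rods against 7, 12 and 22, with overlap (2.04-fold, log2 fold change 1.03, SE 0.39, unadjusted p = 0.022 and adjusted p = 0.074 by limma). Like Fxyd6, Kcng4 passed the filter only with the help of KO rods. Its change was called under 2 alternatives, among them without Het rods replicate 3 (1.38, limma adjusted p = 0.038), and was 0.45 with the GC trend removed (limma adjusted p = 0.54). None of the 2 testable channels of glia were called. Cnga1 had a log2 fold change of -0.31 in KO rods (limma adjusted p = 0.015), under the fold threshold, and -0.10 with the GC trend removed. Of the same list, Cacna1f and Cacna2d4 went the other way, at 0.31 and 0.23 (limma adjusted p = 0.030 and 0.043). These too were under the fold threshold, and were 0.08 and 0.05 with the trend removed. Kcnj14 changed sign, from 0.20 (limma adjusted p = 0.13) to -0.30 with the trend removed (limma adjusted p = 0.022), under the fold threshold in both settings. In KO retina none of the listed genes changed.

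**Figure D4:**
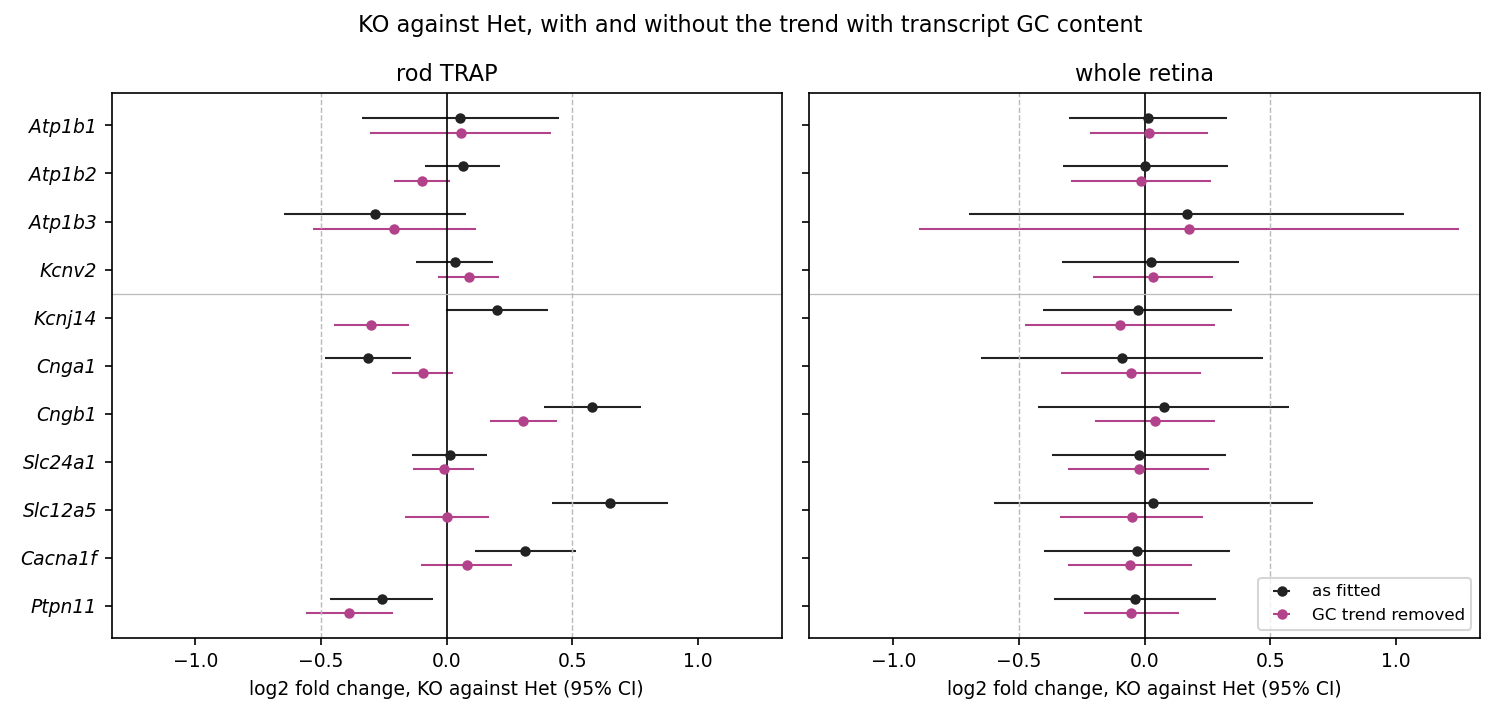
Log2 fold change of KO against Het with its 95% confidence interval (limma) in rod TRAP (left) and whole retina (right), as fitted in black and with each library's GC trend removed in purple; dashed lines mark the fold threshold of 0.5. The intervals of all 4 members include 0 in both panels, and Cngb1 in rods moved from 0.58 to 0.30.

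**Figure D5:**
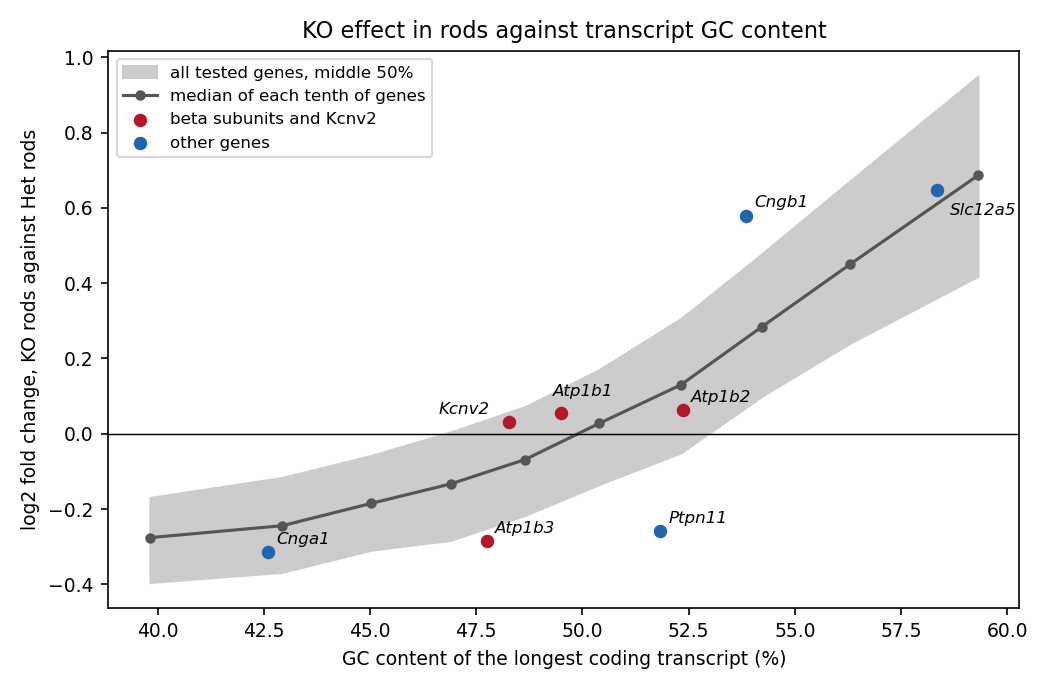
Log2 fold change of KO against Het rods plotted against the GC content of the longest coding transcript (%), with the median (line) and middle 50% (grey) of 10 bins of the genes tested. The medians rise from -0.28 to 0.69, and the 4 members in red lie near the middle of the GC range, between -0.28 and 0.06.

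The genes whose log2 values followed each member most closely over the 12 libraries were found among 17191 others by Pearson's r. For Atp1b1 these were Sparcl1, Parva and Atp2b4, for Atp1b2 Cds1, Gle1 and Mta2, for Atp1b3 Vgll3, B3glct and Dsc2, and for Kcnv2 Lrit1, Bace1 and Anp32e. The r values lay between 0.995 and 0.999. Kcnv2 and Atp1b2 had r = 0.984, which placed Kcnv2 at rank 262 for Atp1b2 and Atp1b2 at rank 326 for Kcnv2. The 12 libraries form separate rod and retina groups for all of these genes, so r describes that split first and is given without a test.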

How the data were processed

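RNA was measured in 12 mouse libraries, 3 for each of Het rods, KO rods, Het retina and KO retina, grouped by the genotype and tissue of each sample record. Per the labels, the submitters' processing notes name CASAVA 1.8.2, HISAT2, DESeq2, edgeR and the build GRCm39, without roles, and the counter is not given in the sources used here. The deposited values are a signal: whole numbers with nearly equal totals within a fraction (14525527 to 14527992 in retina, 16263948 to 16265259 in rods), so the authors' processing scaled and rounded the reads, and depth is unknown. This was inferred from the values, and a count test was planned only for raw counts.

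Values were scaled by TMM, raised by a pseudocount of 2 and put on the log2 scale. The fits used limma 3.58.1 in R 4.3.3 with the trend and robust options and only the libraries compared, on genes with a value of about 10 in at least 3 libraries and a sum of at least 15. All genes tested entered the Benjamini-Hochberg adjustment. Changed means past both thresholds, 0.05 for the adjusted p and 0.5 for the size of the log2 fold change. The ratios of genes and the shares were compared by two-sided exact permutation tests within genotype. The fits were tested on simulated data. Of the identifiers in the table, 91.76% matched the GENCODE M21 annotation of GRCm38, which gave transcript lengths and GC content, and GC content was known for 98.87% of genes in the rod comparison. Promoter windows come from RefSeq on GRCm38.p6, a different build from that of the deposited values. Python 3.11.15, NumPy 2.4.6, SciPy 1.17.1 and matplotlib 3.10.9 were used. Table columns of other samples numbered 0.

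Replicate numbers come from the sample titles. Same-numbered Het rods and Het retina libraries deviated together (correlations of 0.24 to 0.43 in 3 of 3 pairs), so these numbers pair the samples. The link was weaker between KO rods and KO retina, with correlations of 0.03 to 0.30. Their mean was 0.18, compared with -0.09 for unlike numbers, and all 3 KO rod libraries correlated most with the KO retina library of their number. Between KO and Het not every pair deviated together (rods 0.02 to 0.10, retina -0.57 to 0.38). The main fits and permutation tests did not use the pairing. The alternatives were other scalings, pseudocounts, filters, a replicate block, removal of the trend with GC content, a single fit, a plain empirical Bayes step and leaving out each library. The members and gene lists were chosen with earlier results of these data known. Genes of a list past the threshold and its 4 genes with the highest mean were to be named, at most 8 per list and comparison. Some listed genes are not reported here. Named too were Ptpn11 and the 3 genes most like each member.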

Additional observations from a re-analysis of the deposited data

How the results depend on the processing

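All 334 values of the 4 members under the alternatives stayed on the same side of the threshold. Signs changed only where neither setting passed it, in 11 values for KO against Het rods, 13 for KO against Het retina and 18 for the difference between these effects. In Het rods against Het retina the log2 fold change ranged over all settings other than left-out libraries from -5.75 to -5.17 for Atp1b1, 0.79 to 1.38 for Atp1b2, -3.90 to -3.32 for Atp1b3 and 0.89 to 1.47 for Kcnv2. With a replicate block, Atp1b2 had a limma adjusted p of 2.7e-05 and Kcnv2 one of 1.2e-05 in Het mice, the block gave 1885 changed genes in KO against Het rods, and it changed no member's call. By pairs of the same number, 5 of 6 member ratios had an adjusted exact permutation p of 0.0375.

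Counts of changed genes moved more. The 1710 genes in KO against Het rods became 346 with the GC trend removed, 403 with that and the replicate block, 922 with a plain empirical Bayes step and 0 in 1 fit over all 12 libraries, where the spread is shared with the retina libraries. Leaving out 1 library gave 887 (without Het rods replicate 1) to 1943, and 1100 without KO rods replicate 2. For Het rods against Het retina it gave 5335 (without Het retina replicate 1) to 8732, compared with 9376. For KO rods against KO retina it gave 5799 (without KO retina replicate 1) to 9407, compared with 10033, with 6413 without KO retina replicate 2. Leaving out a retina library also cut the genes tested, since a gene low in rods then cannot meet the minimum of 3 libraries through retina. Without Het retina replicate 1, 13394 genes were tested instead of 16110, and without KO retina replicate 1, 13458 instead of 16121. Without Het rods replicate 1, 16008 were tested. In KO against Het retina a plain empirical Bayes step gave 1 changed gene and left-out libraries 0 to 1, and the difference between effects gave 0 to 1. A low level limits Atp1b1 and Atp1b3 in rods, where depth is unknown. What else moved these counts was not tested.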
